A study of Mus musculus with 6 samples.

Results

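The 9 genes described here encode the Janus kinases and most of the signal transducers that carry cytokine signals from the membrane to the nucleus: the kinases *Jak1*, *Jak2*, *Jak3* and *Tyk2*, and the transcription factors *Stat3*, *Stat4*, *Stat5a*, *Stat5b* and *Stat6*. They were taken by name from a table of read counts for 27179 mouse genes, in which each gene is given by its Entrez identifier, and all 9 were among the 11005 genes with enough reads to be tested. The 6 RNA-seq libraries came from NP-binding IgG1+ germinal center (GC) B cells of mouse spleens, isolated by flow cytometry on days 7, 10 and 14 after intraperitoneal immunization with NP-KLH in alum, and each day had 1 WT and 1 *Il21r*-/- library. NP is a small hapten, KLH the carrier protein it was coupled to, and the sort kept B220+ cells without CD138, IgM, IgD, Gr1 and CD38. Both genotypes were C57BL/6, the mutants by backcrossing. According to the study's methods, all experiments but a DNA labelling time course used irradiated Ly5.1 hosts given WT or *Il21r*-/- bone marrow, so that the receptor was missing from all donor-derived cells and not from B cells alone.

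Each kinase sits on the cytoplasmic part of particular cytokine receptor chains, and when a cytokine brings the chains together the kinases phosphorylate the receptor and the STAT proteins docked on it, which pair and bind DNA. The receptor for IL-21 joins its own chain, encoded by *Il21r* and associated with JAK1, to the common gamma chain, encoded by *Il2rg* and associated with JAK3, and acts mainly through STAT3 and to a lesser extent through other STATs. In GCs IL-21 comes from T follicular helper cells together with IL-4, which shares the gamma chain and acts through STAT6.

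The libraries held 21353438 to 27435124 reads counted on genes, and the summed level of 9 GC B cell markers was 7568 to 9940 CPM, the unit of edgeR for counts relative to the library's total after TMM normalization. The T and NK cell list was at 83.3 to 122 CPM, nearly all of it *Lck*, a kinase gene that these cells expressed, while *Cd3e* had 0 to 2 counts and *Cd8a* 0 to 1 in a library. The myeloid list was at 14.7, 8.54 and 12.8 CPM in WT on days 7, 10 and 14 and at 20.6, 12.6 and 18.0 in *Il21r*-/-, higher on each day. Much of it was *Cd68*, at 7.69, 5.94 and 5.99 CPM in WT and 11.1, 9.56 and 9.39 in *Il21r*-/-. *Cd68* was called (log2 fold change of WT minus *Il21r*-/- −0.62, adjusted p = 0.0449 by edgeR's quasi-likelihood test). *Adgre1* and *Fcgr3* were also higher in *Il21r*-/- on each day and *Itgam* lower on each day. *Lyz2*, *Csf1r*, *Cd14*, *S100a8* and *S100a9* had no single direction. The light zone (LZ) list did not overlap between genotypes, with 776 to 1028 CPM in WT and 1391 to 1641 in *Il21r*-/-. Neither did the dark zone (DZ) list, in the other direction, with 1952 to 2129 CPM in WT and 1732 to 1799 in *Il21r*-/-. The part of these 3 lists in the differences below was not tested. *Il21r* itself stood at 105.8 to 127.6 CPM in *Il21r*-/- against 246.6 to 345.8 in WT (log2 fold change 1.29, standard error (SE) 0.13, adjusted p = 0.00137 by edgeR's quasi-likelihood test), so the mutant libraries kept reads of the targeted gene. There was 1 library per genotype and day, and the labels and the study's methods do not give the same number of mice behind a library, so the p-values measure the spread between these libraries. In RNA from sorted cells, fewer cells with a transcript and less RNA per cell cannot be told apart.

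The comparison of genotypes asks how GC B cells differ when they cannot receive IL-21. The study's methods estimated dispersions under genotype plus a linear effect of day and tested genotype on each day, whereas 1 genotype effect over the 3 days, under that additive model, was tested here. In this test *Jak3* was the only member whose difference between genotypes passed the test over the 3 days, and *Stat4* the only one whose change with time did. Their promoters are shown for that reason, from RefSeq on GRCm38.p6, as 300 bases from 250 before to 50 after the annotated start, with CG dinucleotides in capitals. The *Jak3* window is chr8:71676133-71676432 and the upstream one of 2 *Stat4* windows chr1:51986898-51987197, both on the plus strand.
Jak3: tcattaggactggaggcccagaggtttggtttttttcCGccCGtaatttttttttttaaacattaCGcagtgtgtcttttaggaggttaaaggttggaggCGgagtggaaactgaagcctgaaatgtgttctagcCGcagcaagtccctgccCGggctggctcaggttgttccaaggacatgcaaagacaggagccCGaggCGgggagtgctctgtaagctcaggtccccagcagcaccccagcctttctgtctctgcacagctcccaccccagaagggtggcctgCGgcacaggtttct
Stat4: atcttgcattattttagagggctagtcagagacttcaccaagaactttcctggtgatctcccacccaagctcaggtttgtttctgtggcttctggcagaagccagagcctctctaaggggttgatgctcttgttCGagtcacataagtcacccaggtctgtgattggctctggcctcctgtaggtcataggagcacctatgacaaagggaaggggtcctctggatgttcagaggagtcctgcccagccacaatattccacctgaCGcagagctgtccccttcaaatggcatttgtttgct

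The *Jak3* window held 9 CG dinucleotides and the *Stat4* windows 2 and 4, against a median of 7 over all promoters. The members spanned a wide range on this measure, up to 44 in *Jak2* and 50 in the first window of *Stat5b*. STAT dimers bind TTCNNNGAA, or TTCNNNNGAA for STAT6, and both strings read the same way on either strand. None of the 12 windows of the 9 members held either string, which 8.30% and 6.95% of the 32851 promoters in the table held. That says only that these letters are not in these windows. For comparison, 2 feedback inhibitors that STATs are known to induce did hold the shorter string, shown in capitals, *Cish* (chr9:107296654-107296683, plus strand) with 2 copies and *Socs3* (chr11:117969496-117969525, minus strand) with 1.
Cish: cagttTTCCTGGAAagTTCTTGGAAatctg
Socs3: cagccTTCTTAGAAgggaggggggggaaag

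The levels of the members were compared per length of transcript, as RPKM, the CPM divided by the deposited gene length in kilobases. *Jak1* was the most abundant, with a mean of 46.6 ± 7.63 (SD over the 6 libraries), followed by *Stat6* at 24.2 ± 3.30, *Stat3* at 20.6 ± 3.34 and *Stat5b* at 17.7 ± 2.02. *Jak2*, *Jak3*, *Tyk2* and *Stat5a* lay close together at 12.1 ± 2.14, 11.1 ± 2.81, 9.19 ± 1.90 and 8.14 ± 1.07, and *Stat4* was the lowest at 3.82 ± 2.31. *Jak1* lay above *Stat6*, *Stat3* above *Stat5b*, *Stat5b* above *Jak2* and *Stat5a* above *Stat4* in all 6 libraries. *Stat6* was above *Stat3* in 4 of 6, *Jak2* above *Jak3* in 3 of 6, *Jak3* above *Tyk2* in 4 of 6 and *Tyk2* above *Stat5a* in 4 of 6, so these neighbours had no fixed order over the 6 libraries. For the first 3 of these pairs the ratio did not overlap between genotypes, which was so for 21.0% of all pairs of the genes tested. Outside the list, *Stat2*, which acts in type I interferon signalling, averaged 7.21 RPKM.

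**Figure D1:**
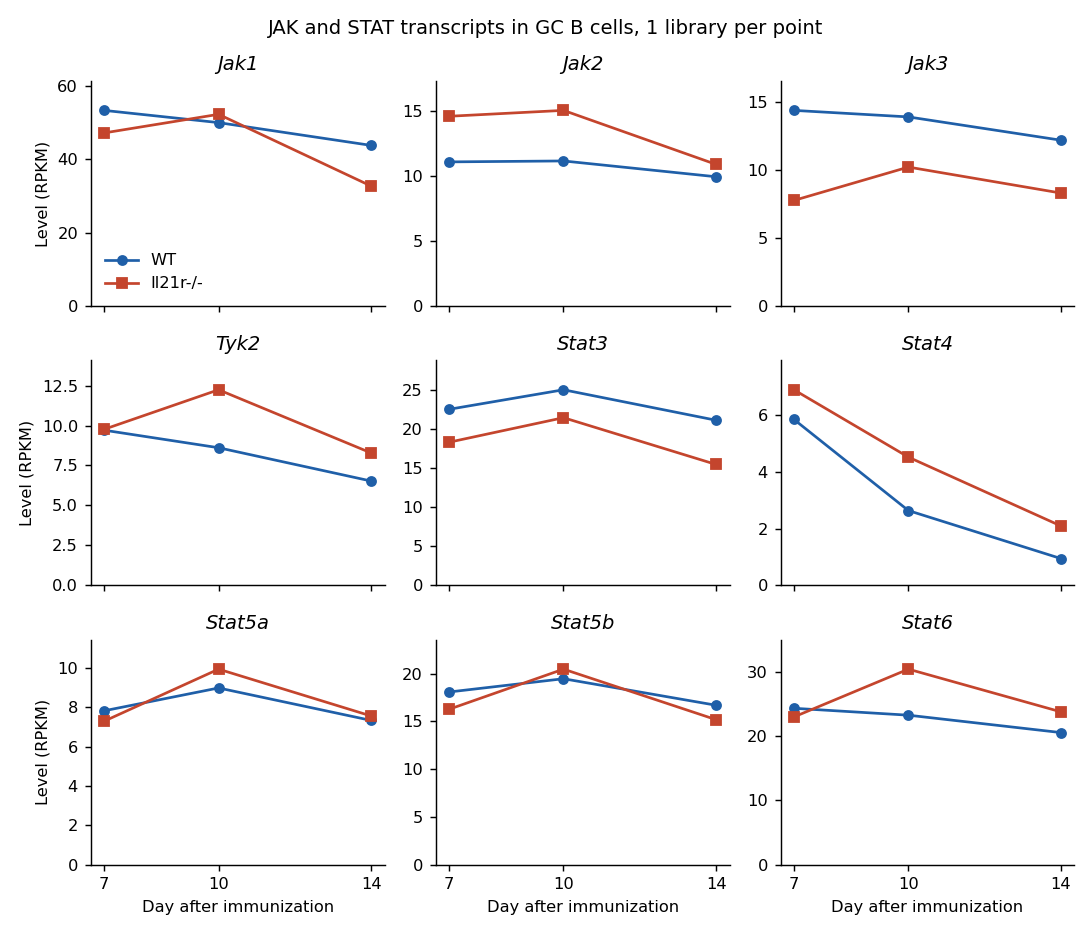
Level of each member in RPKM (vertical axis, from 0) by day after immunization in WT (circles) and *Il21r*-/- (squares), 1 library per point, with lines joining the libraries of a genotype. *Jak3* lies higher in WT and *Jak2* and *Stat4* higher in *Il21r*-/- on every day, and *Stat4* falls with time in both genotypes.

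*Jak3*, the kinase of the common gamma chain and so of the IL-2, IL-4 and IL-21 receptors among others, was higher in WT on all 3 days. Its level was 14.4, 13.9 and 12.2 RPKM in WT on days 7, 10 and 14, and 7.75, 10.2 and 8.28 RPKM in *Il21r*-/-. The lowest WT library was above the highest *Il21r*-/- library, and the widest gap was on day 7, where WT held 1600 reads and *Il21r*-/- 725. WT was 1.85-fold higher on day 7, 1.36-fold on day 10 and 1.47-fold on day 14. Over the 3 days the log2 fold change (WT minus *Il21r*-/- throughout) was 0.62 (SE 0.13, 95% confidence interval 0.32 to 0.92, adjusted p = 0.0296 by edgeR's quasi-likelihood test). Among all genes tested 5.92% were called in that comparison, against 1 of the 9 members, and 18.4% had no overlap between genotypes in CPM, against *Jak3* alone among the members. The call was lost without WT day 7, *Il21r*-/- day 7, WT day 10, WT day 14 or *Il21r*-/- day 14 (highest adjusted p = 0.139), with the log2 fold change between 0.49 and 0.74 whichever library was left out.

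*Jak1*, which serves the IL-21 receptor chain, the IL-4 receptor and many others, was not called. Its level was 53.3, 50.01 and 43.8 RPKM in WT and 47.2, 52.3 and 32.7 in *Il21r*-/- on days 7, 10 and 14. The groups overlapped, with the *Il21r*-/- library the higher one on day 10 and the lowest of all 6 on day 14. The log2 fold change over the 3 days was 0.17 (95% confidence interval −0.12 to 0.46, adjusted p = 0.499 by edgeR's quasi-likelihood test). It lay between 0.03 and 0.30 with 1 library left out, and was called without *Il21r*-/- day 10 (adjusted p = 0.0422 by the same test). That fit called 2093 genes.

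*Jak2*, the kinase of the interferon gamma, IL-3 and IL-5 receptors among others, pointed the other way from *Jak3*. It stood at 11.1, 11.1 and 9.92 RPKM in WT and at 14.6, 15.0 and 10.9 RPKM in *Il21r*-/-. The *Il21r*-/- library was the higher one on each day, but its day 14 library lay below the WT libraries of days 7 and 10. The log2 fold change was −0.32 (SE 0.11, adjusted p = 0.142 by edgeR's quasi-likelihood test). It was called with day as a block (adjusted p = 0.00862 by the same test), a fit that compares the WT and *Il21r*-/- library within each day. That fit called 22.9% of all genes.

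*Tyk2*, which serves the receptors of type I interferon, IL-10 and IL-12, was alike on day 7 and higher in *Il21r*-/- later. Its level was 9.71, 8.61 and 6.52 RPKM in WT and 9.76, 12.2 and 8.28 RPKM in *Il21r*-/-. The day 14 library of *Il21r*-/- lay below the WT libraries of days 7 and 10. The log2 fold change over the 3 days was −0.30 (SE 0.14, adjusted p = 0.274 by edgeR's quasi-likelihood test), and −0.29 with day as a block (adjusted p = 0.0382), where 22.9% of all genes were called. With 1 library left out it lay between −0.45 and −0.15 and was not called.

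*Stat3*, the main factor downstream of IL-21, was higher in WT on each day by a modest amount. It stood at 22.5, 25.0 and 21.1 RPKM in WT and at 18.3, 21.4 and 15.4 RPKM in *Il21r*-/-. WT was 1.23-fold higher on day 7, 1.17-fold on day 10 and 1.37-fold on day 14, while the highest *Il21r*-/- library, on day 10, just passed the lowest WT library, on day 14. The log2 fold change was 0.32 (SE 0.13, 95% confidence interval 0.03 to 0.60, adjusted p = 0.190 by edgeR's quasi-likelihood test). It was called with day as a block (adjusted p = 0.00458) and without *Il21r*-/- day 10 (adjusted p = 0.0079, both by the same test). The first of these fits called 22.9% of all genes and the second 2093 genes.

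*Stat6*, the factor of IL-4, did not differ beyond the spread. Its level was 24.3, 23.3 and 20.6 RPKM in WT and 23.0, 30.4 and 23.8 RPKM in *Il21r*-/-. The *Il21r*-/- library of day 10 was the highest of the 6, and the other 5 lay between 20.6 and 24.3. The log2 fold change was −0.18 (95% confidence interval −0.48 to 0.11, adjusted p = 0.460 by edgeR's quasi-likelihood test). It lay between −0.32 and −0.05 with 1 library left out, and was called in 0 of 12 fits.

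*Stat5a* and *Stat5b*, close paralogs that lie side by side on chromosome 11 and answer to IL-2 and related cytokines, were the steadiest members, with the highest library 1.36 and 1.35 times the lowest. *Stat5a* stood at 7.81, 8.97 and 7.32 RPKM in WT and 7.28, 9.93 and 7.55 in *Il21r*-/-, and *Stat5b* at 18.1, 19.5 and 16.7 in WT and 16.3, 20.5 and 15.2 in *Il21r*-/-. Both peaked on day 10 in both genotypes, and the groups overlapped. The log2 fold changes were −0.04 (95% confidence interval −0.38 to 0.30, adjusted p = 0.912) and 0.06 (95% confidence interval −0.23 to 0.35, adjusted p = 0.823, both by edgeR's quasi-likelihood test). The setting of the counting for reads that fit both paralogs is not given in the sources used here, so the split between them is uncertain.

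*Stat4*, best known downstream of IL-12 in T and NK cells, was the least abundant member and the one that moved most with time. In WT it fell from 475 reads on day 7 to 193 on day 10 and 60 on day 14, or 5.84, 2.63 and 0.94 RPKM. In *Il21r*-/- it fell from 470 to 353 and 155 reads, or 6.88, 4.51 and 2.09 RPKM. Day 7 was 6.19 times day 14 in WT and 3.30 times in *Il21r*-/-. The trend over both genotypes was −0.31 on the log2 scale per day (SE 0.03, adjusted p = 0.00494 by edgeR's quasi-likelihood test), in a comparison that called 4.43% of all genes, 3.36% falling. The call was lost without WT day 7 or without WT day 14 (highest adjusted p = 0.0682), and without WT day 7 no gene of the table was called.

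The *Stat4* level was also higher in *Il21r*-/- on each day, 1.18-fold on day 7, 1.71-fold on day 10 and 2.21-fold on day 14. The libraries of the genotypes overlapped because of the fall with time. Over the 3 days the log2 fold change was −0.67 (SE 0.18, adjusted p = 0.0643 by edgeR's quasi-likelihood test), and −0.65 with day as a block (adjusted p = 0.00249), where 22.9% of all genes were called. DESeq2's Wald test and the fit of all genes with any count also called it, as did the fits without *Il21r*-/- day 7 or day 10. It was called in 5 of 12 fits. Without WT day 7, WT day 10, WT day 14 or *Il21r*-/- day 14 it was not called (highest adjusted p = 0.353 by edgeR's quasi-likelihood test). The log2 fold change lay between −0.88 and −0.51 whichever library was left out. The difference in slope between genotypes was −0.13 per day (not called, unadjusted p = 0.0440 by edgeR's quasi-likelihood test).

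Other cells that could carry *Stat4* were looked for by their markers. Of the T and NK cell list, all but *Lck* had at most 26 counts in a library. *Zap70* had 8, 2 and 2 counts in WT on days 7, 10 and 14 and 22, 8 and 4 in *Il21r*-/-, and *Trac*, of the T cell receptor, had 7, 7 and 4 in WT and 9, 26 and 17 in *Il21r*-/-. Of the 11 genes other than *Lck*, *Cd3d*, *Trac* and *Zap70* had the higher CPM in *Il21r*-/- on each day and the other 8 did not, such as *Cd3g* with 6, 0 and 7 counts in WT and 1, 1 and 3 in *Il21r*-/-. Their summed level was 1.94, 1.10 and 1.64 CPM in WT and 2.49, 2.74 and 2.49 CPM in *Il21r*-/-, and the CPM of *Lck* was higher in WT on each day. The summed level of 7 genes of non-GC B cells was also lower at later days, with 349.6 CPM on day 7, 165 on day 10 and 148 on day 14 in WT, and 350.1, 288 and 201 in *Il21r*-/-. *Ccr6*, *Ccr7*, *S1pr1* and *Klf2* of that list were called higher in *Il21r*-/- over the 3 days, *Cr2* made up most of the sum, and *Ighd* stayed at 0.98 to 1.68 CPM in the 6 libraries. *Cd38*, the marker the sort selected against, went from 26.6 to 5.98 and 2.29 CPM in WT and from 21.3 to 11.7 and 3.65 CPM in *Il21r*-/-. *Ccr6* stood at 9.89, 3.21 and 1.78 CPM in WT and 16.9, 10.9 and 5.70 CPM in *Il21r*-/-, so that both genes were lower at each later day, as *Stat4* was. So were *Cr2*, *S1pr1* and *Klf2*. *Ccr7* rose from 1.59 to 2.11 CPM between days 10 and 14 in WT, and *Ighd* from 1.09 to 1.68 between days 7 and 10 in *Il21r*-/-. *Cd38* was higher in WT on day 7 and not called for genotype (−0.36, adjusted p = 0.448 by edgeR's quasi-likelihood test). The part of these genes in the *Stat4* result was not tested.

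For the other members the change with time did not pass the test. *Jak1* had a slope of −0.06 on the log2 scale per day (adjusted p = 0.162), *Tyk2* −0.06 (adjusted p = 0.191) and *Jak2* −0.04 (adjusted p = 0.236, all by edgeR's quasi-likelihood test). Without *Il21r*-/- day 10 the slopes of *Jak1* and *Tyk2* were called (adjusted p = 0.0145 and 0.0249 by the same test), in a fit that called 2124 genes. The slopes of *Jak3*, *Stat3*, *Stat5a*, *Stat5b* and *Stat6* lay between −0.03 and −0.01. No member and none of the 11005 genes (0.0%) was called for a difference in slope between genotypes, with edgeR's quasi-likelihood test or with DESeq2's Wald test, and 118 genes including 1 member, *Stat4*, had an unadjusted p under 0.05 in edgeR.

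Taken day by day, with edgeR's likelihood ratio test on 1 library per genotype, no member was called, against 1.07% of all genes on day 7, 3.1% on day 10 and 3.28% on day 14. At an unadjusted p under 0.05 there were 1 member on day 7, 1 on day 10 and 2 on day 14, against 5.51%, 10.8% and 12.1% of all genes. The lowest adjusted p-values were those of *Jak3* on day 7 (log2 fold change 0.89, SE 0.26, adjusted p = 0.0575) and of *Stat4* on day 14 (−1.15, SE 0.38, adjusted p = 0.0674). *Jak3* on day 7 was called with DESeq2's size factors in place of TMM (adjusted p = 0.0380) and without *Il21r*-/- day 10 (adjusted p = 0.000376), both by edgeR's likelihood ratio test. With the linear day term kept, *Jak3* was called on day 10 (adjusted p = 0.0226) and *Stat4* on day 14 (adjusted p = 0.0390), and *Stat4* on day 14 also without *Il21r*-/- day 7 or day 10 (adjusted p = 0.0290 and 0.0180). The other fits called no member on a single day. As each day had 1 library per genotype, leaving out a library of another day kept the fold and changed only the spread taken from the other libraries.

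**Figure D2:**
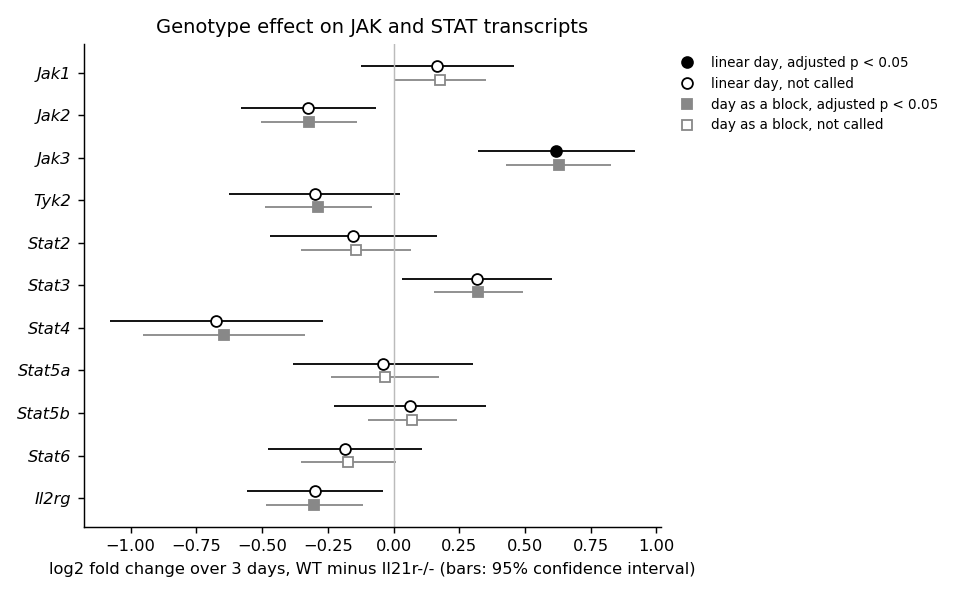
log2 fold change of WT minus *Il21r*-/- over the 3 days (horizontal axis) with its 95% confidence interval, for the 9 members, *Stat2* and *Il2rg*, fitted with a linear effect of day (circles) or with day as a block (squares), filled where the adjusted p was under 0.05. *Jak3* is called in both fits, and *Stat4*, *Stat3*, *Jak2*, *Tyk2* and *Il2rg* with day as a block only.

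With day as a block, 5 of the 9 members were called, *Jak3* and *Stat3* higher in WT and *Stat4*, *Jak2* and *Tyk2* higher in *Il21r*-/-, in a fit that called 22.9% of all genes. The same 5 kept 1 direction on all 3 days, as 53.3% of all genes did in CPM. *Stat2* was not called in either fit, with a log2 fold change of −0.15 (95% confidence interval −0.47 to 0.16) under the linear effect of day. Neither was *Stat5a*, *Stat5b*, *Stat6* or *Jak1* in these fits.

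The members were next set against each other within a library, which removes the scaling between libraries. The ratio of *Jak3* to *Jak1*, its partner on gamma chain receptors, was 0.269, 0.277 and 0.278 in WT and 0.164, 0.195 and 0.253 in *Il21r*-/- on days 7, 10 and 14, on the RPKM scale. The ratio of *Jak3* to *Tyk2* was 1.48, 1.61 and 1.86 in WT and 0.793, 0.833 and 1.001 in *Il21r*-/-. Both were lower in every *Il21r*-/- library than in any WT library. *Jak3* made up 16.2 to 16.8% of the summed JAK level in WT and 9.77 to 13.8% in *Il21r*-/-, and was above *Jak2* in each WT library and below it in each *Il21r*-/- library.

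Among the STATs, the ratio of *Stat3* to *Stat6*, the main factors of IL-21 and of IL-4, was 0.924, 1.07 and 1.03 in WT and 0.796, 0.704 and 0.650 in *Il21r*-/-. *Stat3* thus stood near or above *Stat6* in WT and below it in every *Il21r*-/- library. The ratio of *Stat5b* to *Stat5a* lay between 2.01 and 2.31 in all 6 libraries. Of the 36 pairs of members, 19 had a ratio that did not overlap between genotypes, against 21.0% of all pairs of the genes tested. *Jak3* took part in 7 of the 19 and *Stat4* in 0, and as each member is in 8 pairs the pairs are not independent.

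**Figure D3:**
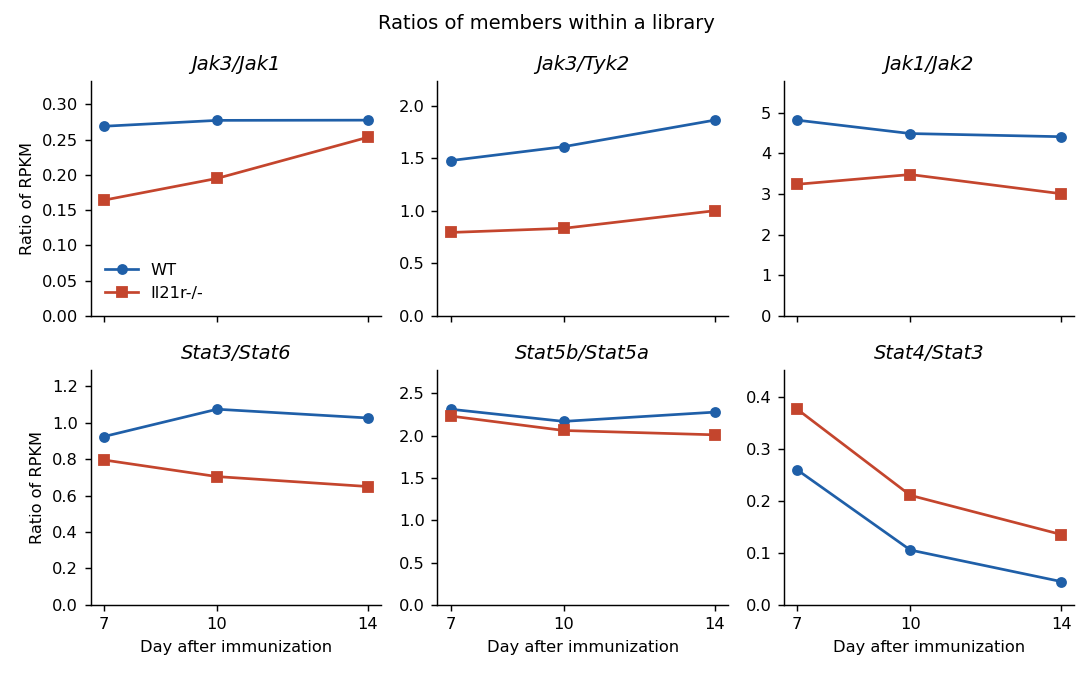
Ratio of the RPKM of 2 members within a library (vertical axis, from 0) by day after immunization in WT (circles) and *Il21r*-/- (squares). The ratios *Jak3*/*Jak1*, *Jak3*/*Tyk2*, *Jak1*/*Jak2* and *Stat3*/*Stat6* lie higher in all WT libraries, *Stat5b*/*Stat5a* stays between 2.01 and 2.31, and *Stat4*/*Stat3* falls with time.

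Across the 6 libraries the members fell into no single pattern. The log2 CPM of *Tyk2* and *Stat6* had a Pearson r of 0.91, *Stat5a* and *Stat5b* of 0.90, *Jak3* and *Stat3* of 0.86 and *Jak2* and *Tyk2* of 0.85, while *Jak2* and *Jak3* had −0.52. Of all genes tested, *Isyna1* and *Map2k3* were nearest to *Jak3* (0.996 and 0.995), *Coq8b* and *Zfp36* to *Stat4* (0.9995 and 0.999), and *Letm1* and *Fntb* to *Stat3* (0.994 and 0.991). *Flot1* (0.999) was nearest to *Jak1*, *St3gal1* (0.988) to *Jak2*, *Clcn7* (0.997) to *Tyk2*, *Nckipsd* (0.998) to *Stat5a*, *Sipa1l3* (0.999) to *Stat5b* and *Atp10d* (0.996) to *Stat6*. These are descriptions over 6 points that share genotype, day and depth.

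The receptors that use these kinases were counted next. This list and those of pathway genes below were chosen with earlier results of these data known. Their counts beside the share of all genes are therefore descriptions and not tests. Of 26 cytokine receptor genes 20 were tested, and over the 3 days 2 were called with more in WT and 9 with more in *Il21r*-/-, with a median log2 fold change of −0.52 against −0.01 for all genes, of which 1.4% (154) were called in the WT direction and 4.52% (497) in the other. Besides *Il21r*, *Il2rb*, the beta chain of the IL-2 and IL-15 receptors, was higher in WT, with 91, 109 and 69 reads against 19, 10 and 5 in *Il21r*-/- (log2 fold change 3.02, SE 0.39, adjusted p = 0.00277 by edgeR's quasi-likelihood test). It passed the expression limit through its level in WT, and under a limit of 10 counts in every library it was not tested, which left *Il21r* alone called in that direction. *Lifr*, a chain of the leukemia inhibitory factor receptor that signals through JAK1 and STAT3, was higher in *Il21r*-/-, with 468, 352 and 110 reads against 57, 34 and 14 in WT (−3.17, SE 0.21). *Il9r*, a partner of the gamma chain, was higher in *Il21r*-/- and rose with time in both genotypes, from 5.6 to 9.9 CPM in WT and from 19.7 to 59.1 CPM in *Il21r*-/- (−2.30, SE 0.19).

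The other receptors called higher in *Il21r*-/- were *Il5ra*, *Il10ra*, *Il10rb*, *Il27ra*, *Ifngr2*, *Il3ra* and *Crlf2*, with log2 fold changes between −1.12 and −0.65. The gamma chain gene *Il2rg* was alike on day 7, at 135.6 CPM in WT and 136.7 in *Il21r*-/-, and higher in *Il21r*-/- on day 10 (94.6 against 127.3) and day 14 (78.5 against 108.7). Its log2 fold change was −0.30 (adjusted p = 0.174, and 0.0151 with day as a block, by edgeR's quasi-likelihood test). With day, 6 of the 20 receptors fell and 1, *Il9r*, rose among those called, against 4.43% of all genes called and 3.36% falling. None of these 7 calls was left without WT day 7 or without WT day 14, 1 without *Il21r*-/- day 7 and 2 without *Il21r*-/- day 14. The number of receptors called higher in *Il21r*-/- over the 3 days went down to 2 without WT day 14, to 4 without WT day 10 and to 5 without *Il21r*-/- day 14, and was 12 with day as a block, where *Il10ra* was not called (adjusted p = 0.157). The myeloid, LZ and plasma cell lists were also higher in *Il21r*-/- on each day, and that of non-GC B cell genes on days 10 and 14. The plasma cell sum was nearly all *Jchain*. Of its other genes *Xbp1* was higher in *Il21r*-/- on each day, and *Sdc1* and *Prdm1* were lower on each day. The part of these lists in the receptor counts was not tested.

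Inhibitors and partners of the pathway followed. Of 20 inhibitor genes 17 were tested, with a median log2 fold change of 0.03, and 1 was called in each direction, against 1.4% of all genes in the WT direction and 4.52% in the other. With day as a block 1 was called in the WT direction and 2 in the other, *Usp18* being added, in a fit that called 22.9% of all genes. *Ptpn1*, a phosphatase that acts on JAK2 and TYK2, was higher in WT, at 248.0, 260.7 and 221.7 CPM against 172.7, 188.1 and 152.0 in *Il21r*-/- (0.51, SE 0.10, adjusted p = 0.0242 by edgeR's quasi-likelihood test). *Socs5*, of the family of suppressors of cytokine signalling, was higher in *Il21r*-/-, at 6.6, 6.4 and 5.4 CPM against 3.9, 2.1 and 1.8 in WT (−1.28, SE 0.22, adjusted p = 0.0123). For both genes the genotypes did not overlap. The call of *Ptpn1* held in 7 of 12 fits and that of *Socs5* in 10 of 12, the one reported among them. *Socs2*, *Socs3* and *Cish*, which STATs induce, were under the expression limit. *Socs3*, which binds JAKs and is a target of STAT3, had 26, 25 and 12 counts in WT on days 7, 10 and 14 and 1, 1 and 0 in *Il21r*-/-, and was called higher in WT in the fit of all genes with any count (adjusted p = 8.89e-05 by edgeR's quasi-likelihood test). *Socs2* had 1 to 3 counts and *Cish* 0 to 5, and neither was called there. None of 6 partners was called, the lowest p-values being those of *Irf9* (−0.26, adjusted p = 0.284), a partner of STAT2, and *Sh2b1* (−0.27, adjusted p = 0.335), an adaptor that binds JAK2.

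Genes that the STATs are known to induce were counted by factor. Of 8 STAT3 targets 7 were tested, with a median log2 fold change of 0.16, and only *Prdm1*, which encodes Blimp-1, was called (1 of 7, against 1.4% of all genes in that direction), higher in WT at 1.4, 1.8 and 1.6 CPM against 0.3, 0.6 and 0.7 in *Il21r*-/- (1.64, SE 0.33, adjusted p = 0.0216 by edgeR's quasi-likelihood test). It rests on 6 to 45 reads in a library and passed the expression limit through WT. Under a limit of 10 counts in every library it was not tested and no STAT3 target was called, and its call held in 6 of the 10 fits that tested it. *Prdm1* is also a gene of plasma cells, whose list, nearly all of it *Jchain*, summed to 2524 to 2739 CPM in WT and 2774 to 3621 in *Il21r*-/-. Of that list *Sdc1*, which encodes CD138, had 20, 21 and 18 counts in WT and 10, 13 and 9 in *Il21r*-/-, while *Xbp1* was called higher in *Il21r*-/- (−0.39, adjusted p = 0.0396 by edgeR's quasi-likelihood test), and the part of plasma cells was not tested. With day as a block *Bcl3* and *Bcl6* were called higher in WT as well, and *Socs3*, the target not tested, was called with any count as given above. Of 7 STAT5 targets 4 were tested, with a median of 0.11, and only *Bcl2l1*, an anti-apoptotic gene, was called (1 of 4, against 4.52% of all genes in that direction), higher in *Il21r*-/- at 31.2, 47.1 and 43.6 CPM against 22.9, 19.8 and 18.7 in WT (−0.98, SE 0.17, adjusted p = 0.0123). That call held in 11 of 12 fits and was lost without WT day 14 (adjusted p = 0.146). With day as a block *Ccnd2*, a cyclin gene, was also called, higher in WT (0.48, adjusted p = 0.0412).

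STAT6 targets were counted last, again from a list chosen with earlier results of these data known, so the counts only describe these genes. Of 8 genes 7 were tested, none had a log2 fold change above 0, the median was −1.21 against −0.01 for all genes, and 4 were called, all higher in *Il21r*-/-, against 4.52% of all genes in that direction. *Ccl22*, a chemokine gene, had 409, 824 and 500 reads in *Il21r*-/- and 27, 12 and 24 in WT (−4.74, SE 0.35). It stood at 0.99, 0.49 and 1.12 CPM in WT and passed the expression limit through its level in *Il21r*-/-. Under a limit of 10 counts in every library it was still tested and called (−4.73, adjusted p = 0.000224 by edgeR's quasi-likelihood test). *Ighe*, the constant region of IgE whose germline transcript IL-4 induces, stood at 107.0, 122.9 and 106.6 CPM in *Il21r*-/- and 16.3, 12.2 and 18.1 in WT (−2.85, SE 0.15). *Fcer2a*, which encodes CD23, was at 807.6, 789.4 and 510.5 CPM in *Il21r*-/- and 392.2, 219.1 and 154.2 in WT (−1.54, SE 0.15), and *Il4i1* was the fourth (−1.21, SE 0.22). The call of *Il4i1* held in 9 of 12 fits and was lost without WT day 10, WT day 14 or *Il21r*-/- day 14 (highest adjusted p = 0.131). *Stat6* itself was not called, as given above, and *Il4ra*, also on the list, had −0.25 (adjusted p = 0.226, and 0.0211 with day as a block, by edgeR's quasi-likelihood test). Between 3 and 6 of the list were called higher in *Il21r*-/- in the 12 fits. *Fcer2a* is also a gene of non-GC B cells. The lists of LZ, myeloid and plasma cell genes on all days, and that of non-GC B cell genes on days 10 and 14, were also higher in *Il21r*-/-. In the plasma cell list, nearly all *Jchain*, *Sdc1* and *Prdm1* were lower in *Il21r*-/- on each day. The part of these lists in the STAT6 target counts was not tested.

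**Figure D4:**
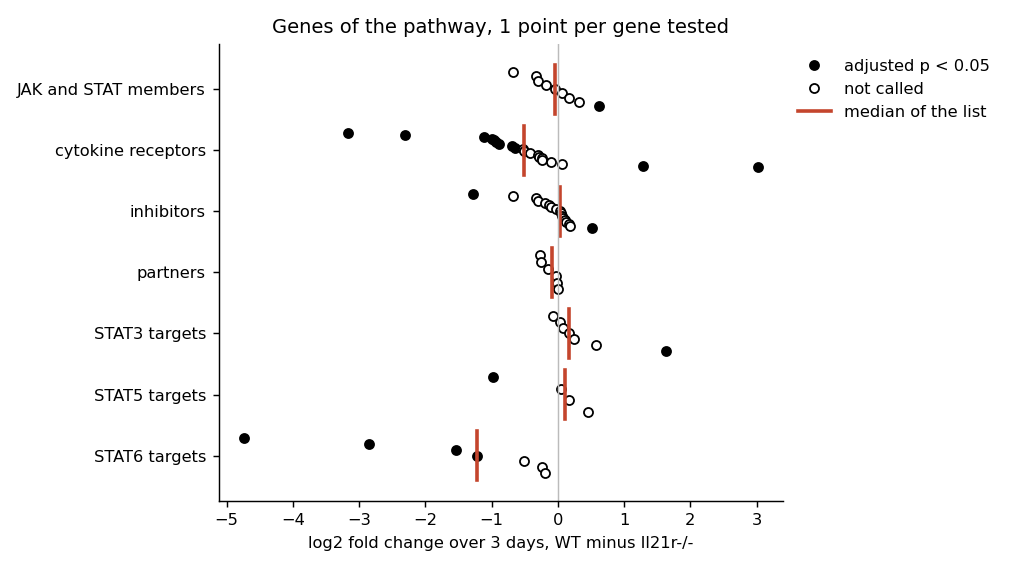
log2 fold change of WT minus *Il21r*-/- over the 3 days (horizontal axis) for each gene tested in the 9 members and in 6 lists of pathway genes, 1 point per gene, filled where the adjusted p was under 0.05, with the median of each list as a vertical bar. The medians of the cytokine receptors (−0.52) and of the STAT6 targets (−1.21) lie below 0, and that of the members near 0.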

How the data were processed

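Single-end reads were mapped to mm10 by the authors with Rsubread, assigned to RefSeq genes with featureCounts, and deposited as whole-number counts per gene, technical replicates pooled and not normalized. Strand and multi-mapping settings are not given in the sources used here. From these counts, those with a negative aveLogCPM were dropped, as in the study's methods, together with *Xist*, Ig variable genes and genes of the Y chromosome, leaving 11005. TMM factors, edgeR 4.0.16 dispersions (genotype plus linear day, 3 residual degrees of freedom) and Benjamini-Hochberg adjustment over all genes at 0.05 followed. Positions and symbols are those of GRCm38.p6. RPKM used the deposited gene length. Overlapping genes had few reads (at most 10 in *Raver2*, 5 in *Insl3* and 6 in *Gm3940*) except *Nab2* beside *Stat6* (at most 426). Days pair the libraries: deviations from genotype means correlated across genes with r = 0.640, 0.413 and 0.645. The genes named were all members, *Il21r*, *Il2rg*, *Stat2* and, of each list, up to 4 called genes with the largest change, or the 2 lowest p. Others are named beside counts, and 2 genes of the lists are not reported here. Members and lists were chosen with earlier results of these data known. The procedure was tested on simulated data. Alternatives used DESeq2 1.42.0, other filters, other day terms, and each library left out.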

Additional observations from a re-analysis of the deposited data

How the results depend on the processing

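Of the values of single genes that were refitted, 441 kept direction and side of the threshold, 19 passed it, 22 lost it and 10 changed sign; the causes were not tested. With day as a replicate block, a paired fit of the 2 genotypes, 2519 genes and 5 members were called over the 3 days, against 651 and 1. All genes with any count gave 991 and 2, and DESeq2's Wald test 951 and 2. Leaving out 1 library gave 136 to 2093 genes and 0 to 4 members, the most without *Il21r*-/- day 10 (2093 genes), when *Jak1*, *Jak3*, *Stat3* and *Stat4* were called, and the fewest without WT day 14. On day 7, DESeq2's size factors called 1 member, and leaving out a library gave 104 to 220 genes and 0 to 1 members. Keeping the linear day term called 722 genes and 1 member on day 10 and 1 member on day 14, where leaving out a library gave 341 to 704 genes and 0 to 1 members. For the day trend, 869 genes were called with any count and 870 by the Wald test, and 0 to 2124 genes and 0 to 3 members with a library left out. For the trend difference it was 0 to 11 genes.

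Values near 0 changed sign when a library was left out: over the 3 days *Stat5a* (−0.16 to 0.11) and *Stat5b* (−0.024 to 0.19), and per day *Jak3* (−0.043 to 0.0042), *Stat5a* (−0.036 to 0.012) and *Stat5b* (−0.040 to 0.0005). *Tyk2* on day 7 was 0.0067 with any count. Among the 9 members *Stat4* on day 14 in WT had the fewest reads, 60.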
